A study of Mus musculus with 2 samples.

Results

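The genes described here are those of the respiratory chain and ATP synthase, taken by name from the gene symbols of the files: all symbols beginning with Nduf, Uqcr, Cox4, Cox5, Cox6, Cox7, Cox8, Atp5, Sdha, Sdhb, Sdhc, Sdhd or mt-. Of 32285 genes, 111 matched, and 105 of them held at least 100 UMIs over all barcodes of both libraries. A UMI (unique molecular identifier) marks 1 captured RNA molecule. The 105 members were 92 nuclear genes (78 subunits, 12 assembly factors, Cox7a2l and Ndufa4l2) and the 13 protein-coding genes of mitochondrial DNA. The 6 names left out were Cox7a1 (76 UMIs), Cox4i2 (28), Cox6a2 (15), Cox8b (3) and, with 0 UMIs each, Cox7b2 and Cox8c. The members nearest to the minimum were Cox6b2 with 101 UMIs and Ndufa4l2 with 180.

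The data are 2 droplet RNA libraries from mouse liver, 1 mouse each. At 11 weeks of age the mice had loxP sites in both copies of Glul and no tumour. The control mouse received AAV8-GFP, an adeno-associated virus encoding a green fluorescent protein. The GS_KO mouse received AAV8-Cre, which encodes the recombinase that removes floxed sequence, here in the gene of glutamine synthetase. Livers were taken 2 weeks after the virus, and hepatocytes and non-parenchymal cells were isolated after collagenase perfusion. The sources used here name neither the promoter driving Cre nor the exons removed. Some labels describe cells and others nuclei, and 5-prime libraries were made.

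The respiratory chain passes electrons from NADH and succinate to oxygen through complexes I to IV in the inner mitochondrial membrane, and ATP synthase (complex V) uses the resulting proton gradient to make ATP. Complexes I, III, IV and V are assembled from subunits of both genomes, whereas complex II is encoded wholly in the nucleus. Nuclear transcripts are made in the nucleus and translated in the cytoplasm, while mitochondrial transcripts are made and kept inside the organelle. Hepatocytes are rich in mitochondria, which serve fatty acid oxidation, gluconeogenesis and urea synthesis.

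Glul itself was lower in the GS_KO library, whose label gives the genotype GS-KO (Cre). It stood at 113 CPM (UMIs per 1000000 UMIs) in control and 9.78 CPM in GS_KO in barcodes of 200 to under 400 UMIs, and at 124 and 31.5 CPM in barcodes of at least 1000 UMIs. The matrices held 166037 control barcodes (61635695 UMIs, median 352 per barcode) and 175937 GS_KO barcodes (57973740 UMIs, median 304). Of these, 8108 barcode sequences occurred in both libraries, 4.88% of control and 4.61% of GS_KO. Barcodes were summed in 3 size classes: 200 to under 400 UMIs (116552 control and 143687 GS_KO barcodes), 500 to under 1000 UMIs (11989 and 10037), and at least 1000 UMIs (1703 and 1834), called small, middle and large below. Malat1, a long RNA that stays in the nucleus, stood at 1709 CPM in control and 1365 in GS_KO in small barcodes, 7812 and 17706 in middle ones, and 19613 and 37630 in large ones. The 12 hepatocyte markers summed to 66433 CPM in control and 55623 CPM in GS_KO in large barcodes, and none was at 0. The 10 Kupffer cell markers summed to 88.0 and 565 CPM there, and all 10 were higher in GS_KO in each size class. Each group is 1 library of 1 mouse, so there are no replicates and the mice were not tested against each other. Intervals are exact at 95%, and cover counting error only, not the difference between mice or preparations.

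Nuclear-encoded subunits were lower in GS_KO in every size class. Over all barcodes of a class these subunits had a larger deficit in larger barcodes. From middle to large barcodes that did not hold in every bin of like Malat1 share, as given below. The summed level of nuclear subunits was 23327 CPM in control and 16837 CPM in GS_KO in small barcodes, a log2 ratio of -0.47 (GS_KO over control). In middle barcodes it was 19273 and 12334 CPM, a log2 ratio of -0.64 (-0.66 to -0.63). In large barcodes it was 11026 and 6390 CPM, a log2 ratio of -0.79 (-0.82 to -0.76). The direction was shared by nearly all subunits. Of those measured, 78 of 78 were below 0 in small barcodes and 77 of 77 in large ones. In middle barcodes 76 of 77 were, with Ndufs4 at 0.01 the exception. Of all genes measured, 51.1% were below 0 in small, 40.0% in middle and 47.4% in large barcodes. Fewer cells of a type and less RNA per cell cannot be told apart in such sums.

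Mitochondria-encoded subunits were lower by a smaller margin in each size class. In large barcodes this order turned with free RNA taken off (-1.20, against -0.95 for nuclear subunits), and at a Malat1 share of 2 to under 4% the mitochondrial ratio was -0.03. Over all barcodes of a class, their sum was 93180 CPM in control and 83829 CPM in GS_KO in small barcodes, a log2 ratio of -0.15. It was 72604 and 54702 CPM in middle barcodes, a log2 ratio of -0.41 (-0.41 to -0.40). It was 36442 and 24146 CPM in large barcodes, a log2 ratio of -0.59 (-0.61 to -0.58). All 13 genes were below 0 in middle and large barcodes, and 11 of 13 in small ones, where mt-Nd1 and mt-Nd5 were above 0.

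Taken over all members, 33 of 105 were lower by at least 1.5-fold in small barcodes, where 11.8% of 13688 genes were. In middle barcodes 57 of 104 members were past that fold, against 10.4% of 12349 genes, and in large barcodes 77 of 103, against 15.1% of 10192 genes. No member was higher by 1.5-fold in any class, whereas 20.9% of genes were in small, 26.8% in middle and 23% in large barcodes. The median log2 ratio of nuclear subunits was -0.52, -0.68 and -0.81 in small, middle and large barcodes. The median of all genes measured was -0.01, 0.15 and 0.04, so in middle barcodes the members stand further below the other genes than their own ratios state.

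**Figure D1:**
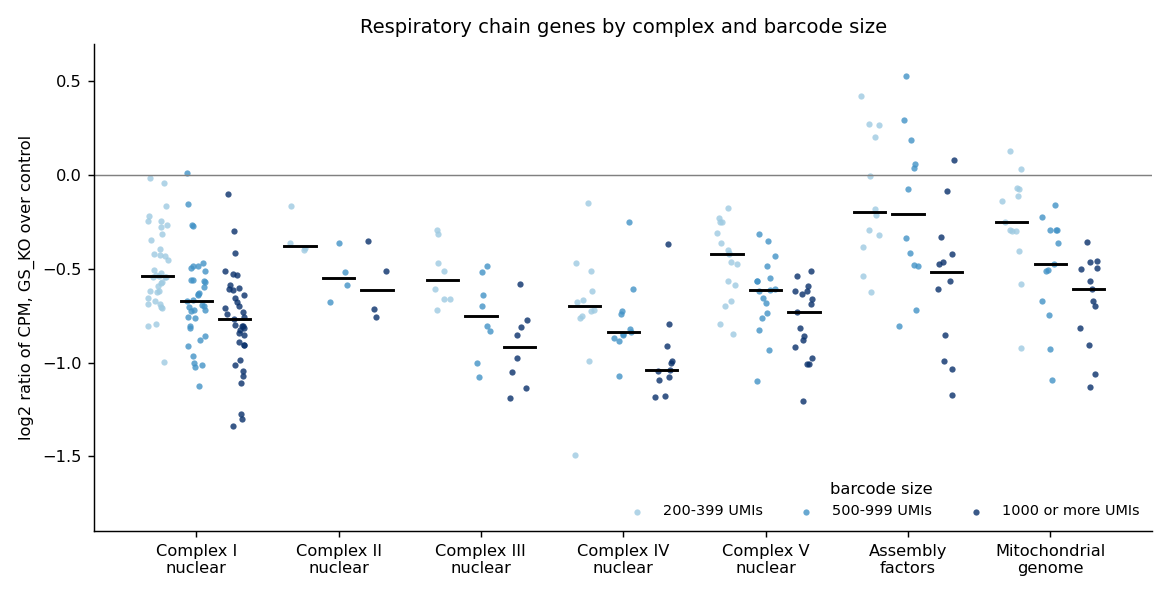
Each point is 1 member, placed by complex and genome of origin on the x axis and by its log2 ratio of CPM (GS_KO over control) on the y axis, in the 3 barcode size classes; bars are medians. The medians of complexes III and IV lie lowest in large barcodes, at -0.91 and -1.04, and the assembly factors spread on both sides of 0 in small and middle barcodes.

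Complex I, the NADH dehydrogenase that feeds most electrons into the chain, had 37 nuclear subunits among the members. They summed to 7000 CPM in control and 5029 CPM in GS_KO in small barcodes (log2 ratio -0.48) and to 3433 and 2051 CPM in large ones (-0.74, -0.79 to -0.69). In large barcodes 31 of the 37 were lower by 1.5-fold or more, against 15.1% of all genes. The 7 nuclear core subunits, which carry the flavin and the iron-sulfur clusters, were less reduced than the 30 accessory subunits in the small class, with log2 ratios of -0.28 (-0.30 to -0.26) and -0.52 (-0.53 to -0.51). In large barcodes the values were -0.58 (-0.70 to -0.47) and -0.78 (-0.84 to -0.72).

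The lowest complex I member was Ndufa5 (ENSMUSG00000023089, mm10 chr6:24518666-24528013, minus strand), an accessory subunit of the matrix arm. It stood at 107 CPM in control and 53.7 CPM in GS_KO in small barcodes, and at 57.3 and 22.5 CPM in large ones, a log2 ratio of -1.34 (-1.83 to -0.88). It was the member with the lowest ratio in large barcodes. Ndufa12, an accessory subunit joined late in assembly, followed at 93.0 and 37.7 CPM, a log2 ratio of -1.30 (-1.68 to -0.94).

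At the other end of complex I were Ndufs4 and Ndufs3. Ndufs4, an accessory subunit whose loss causes a fatal encephalopathy in mice, was at 105 CPM in control and 88.7 in GS_KO in small barcodes, 118 and 119 in middle ones, and 158 and 147 in large ones. Its log2 ratio in large barcodes was -0.10 (-0.31 to 0.12), an interval that includes 0. Ndufs3, a core subunit, was at 82.5 and 67.1 CPM in large barcodes, a log2 ratio of -0.30 (-0.61 to 0.02). The remaining 33 nuclear subunits of complex I lay between Ndufa12 and Ndufs3.

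Complex II, succinate dehydrogenase, is also an enzyme of the citric acid cycle. Its 4 subunits were all lower in GS_KO and had the sum ratio nearest to 0 among the nuclear parts of the 5 complexes in both small and large barcodes, -0.35 (-0.37 to -0.33) and -0.59 (-0.73 to -0.46). Their sums were 923 and 725 CPM in small barcodes and 480 and 318 CPM in large ones. Sdhd, a membrane anchor, was at 79.7 and 47.1 CPM in large barcodes (-0.76, -1.11 to -0.41), and Sdhc, the other anchor, at 75.6 and 59.3 CPM (-0.35, -0.68 to -0.02). The catalytic flavoprotein Sdha was at 148 and 104 CPM and the iron-sulfur subunit Sdhb at 177 and 108 CPM. The interval of the complex II sum in large barcodes overlaps those of complexes I and V, so their order is not set by these counts.

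Complex III, which passes electrons from ubiquinol to cytochrome c, had 8 nuclear subunits among the members, all lower in GS_KO. They summed to 2495 and 1713 CPM in small barcodes (-0.54, -0.56 to -0.53) and to 1199 and 640 CPM in large ones (-0.91, -1.0 to -0.82). Uqcrb, a small subunit near the ubiquinone site, was at 143 and 62.6 CPM in large barcodes (-1.19, -1.48 to -0.91), and Uqcr11, another small subunit, at 132 and 60.2 CPM (-1.14, -1.43 to -0.85). The least reduced were the core protein Uqcrc2, at 137 and 91.7 CPM (-0.58, -0.84 to -0.33), and the Rieske iron-sulfur protein Uqcrfs1, at 195 and 114 CPM (-0.77, -1.0 to -0.55). The single mitochondrial subunit, mt-Cytb, was at 4863 and 2600 CPM, and its log2 ratio of -0.90 (-0.95 to -0.86) was close to that of the nuclear sum.

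Complex IV, cytochrome c oxidase, reduces oxygen to water. Its nuclear subunits showed the lowest median of the complexes: 12 members summed to 5576 and 3724 CPM in small barcodes (-0.58, -0.59 to -0.57) and to 2502 and 1326 CPM in large ones (-0.92, -0.98 to -0.85), with medians of -0.70 and -1.04. In large barcodes 10 of the 11 measured were past 1.5-fold lower, against 15.1% of all genes. Cox6b1, a subunit that caps the dimer on the intermembrane side, was at 172 and 75.7 CPM (-1.18, -1.45 to -0.93), and Cox7a2 was at 148 and 65.1 CPM (-1.18, -1.46 to -0.90).

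Cox5a was the exception among nuclear subunits of complex IV. It was at 529 CPM in control and 478 CPM in GS_KO in small barcodes, at 446 and 374 in middle ones, and at 236 and 183 in large ones. The log2 ratio in large barcodes was -0.36 (-0.55 to -0.18), above the interval of each other subunit of the complex measured there. The 3 mitochondrial subunits mt-Co1, mt-Co2 and mt-Co3, which form the catalytic core, summed to 16003 and 11416 CPM in large barcodes (-0.49, -0.51 to -0.46). Nuclear and mitochondrial parts of complex IV thus had ratios whose intervals did not overlap, and mt-Co3 had a ratio of -0.46 (-0.50 to -0.42).

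Several complex IV subunits exist as tissue isoforms, and in both libraries the widely expressed form carried nearly all UMIs. Cox4i1 stood at 488 and 282 CPM in large barcodes, while Cox4i2, the form of lung and hypoxic tissue, had 28 UMIs over both whole libraries. Cox6a1 (195 and 98.2 CPM) and Cox8a (242 and 129 CPM) were likewise measured where the muscle forms Cox6a2 and Cox8b were under the minimum. Cox6b2, the testis form, had 4 control and 2 GS_KO UMIs in large barcodes, too few for a ratio. In small barcodes it was at 1.26 and 0.441 CPM, a log2 ratio of -1.49 (-2.36 to -0.72). No shift from a widely expressed to a tissue-restricted form was detectable at this depth. Ndufa4, named for complex I but a subunit of complex IV, was at 281 and 136 CPM in large barcodes (-1.04, -1.24 to -0.85). Its paralog Ndufa4l2, a hypoxia-induced protein, had 2 control and 3 GS_KO UMIs there.

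Complex V had 17 nuclear subunits, 5 of F1 (catalytic head and central stalk) and 12 of the membrane part and peripheral stalk. All 17 were lower in GS_KO, with sums of 7333 and 5647 CPM in small barcodes (-0.38, -0.38 to -0.37) and 3412 and 2055 CPM in large ones (-0.73, -0.78 to -0.68). F1 was less reduced than the membrane part and peripheral stalk in small barcodes, with log2 ratios of -0.33 (-0.34 to -0.32) and -0.40 (-0.41 to -0.39). The same held in middle ones, with -0.51 (-0.55 to -0.48) and -0.59 (-0.61 to -0.56). In large barcodes the intervals overlapped, at -0.74 (-0.83 to -0.65) and -0.73 (-0.79 to -0.66). Atp5e, the epsilon subunit of F1, was at 138 and 59.8 CPM (-1.20, -1.50 to -0.92) in large barcodes. Atp5j, the coupling factor of the peripheral stalk, was at 257 and 128 CPM there (-1.01, -1.21 to -0.80).

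The proton-carrying c-ring of ATP synthase is encoded by 3 genes whose mature proteins are identical. Atp5g1 was at 196 and 137 CPM in large barcodes (-0.51, -0.72 to -0.30), Atp5g2 at 177 and 122 CPM (-0.54, -0.76 to -0.31) and Atp5g3 at 582 and 362 CPM (-0.69, -0.81 to -0.56). Their intervals overlapped, so no difference among the 3 genes was resolved there. In small barcodes Atp5g1, at 498 and 388 CPM, had a log2 ratio of -0.36 (-0.39 to -0.33), below those of Atp5g2 and Atp5g3 at -0.23 (-0.26 to -0.20) and -0.25 (-0.27 to -0.23). The handling of reads shared between such copies is not stated by the sources used here.

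Assembly factors, which help build the complexes and are not part of them, were less uniform. The 12 measured factors (8 of complex I and 4 of complex II) summed to 313 and 270 CPM in small barcodes (-0.22, -0.25 to -0.18) and to 305 and 188 CPM in large ones (-0.70, -0.87 to -0.52). In small barcodes 4 of 12 were above 0, among them Ndufaf5 at 4.68 and 6.27 CPM (0.42, 0.15 to 0.71) and Sdhaf1 at 17.2 and 20.8 CPM (0.27, 0.12 to 0.42). In large barcodes these 2 factors had fewer than 20 UMIs per library, and their intervals included 0. Ndufaf4, which acts early in complex I assembly, was the lowest at 49.0 and 21.7 CPM in large barcodes (-1.17, -1.68 to -0.69), a factor chosen after its value was seen. Cox7a2l, which joins complexes III and IV into supercomplexes, was at 95.3 and 97.1 CPM in small barcodes (0.03, -0.04 to 0.09) and at 54.5 and 44.6 CPM in large ones (-0.29, -0.68 to 0.10). Both intervals of Cox7a2l include 0, while that of its homologue Cox7a2 lay below 0 in both classes.

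The extremes in small barcodes partly differed from those in large ones. Among members with at least 100 UMIs there, and beside Cox6b2, the lowest were Ndufa5 (-1.0, -1.07 to -0.92), Cox7c (-0.99, -1.03 to -0.95) and mt-Nd3 (-0.92, -0.98 to -0.87). Cox7c, a small subunit of complex IV, was at 393 and 198 CPM in small barcodes and at 197 and 98.2 CPM in large ones. Its ratio was therefore alike in the 2 classes, whereas most subunits had lower ratios in large barcodes. The highest in small barcodes were Ndufa4l2 at 1.29 and 1.77 CPM (0.45, -0.08 to 1.0), Ndufaf5 and Sdhaf1.

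The 13 mitochondrial genes are read from long transcripts of a compact circle, and in places their coding regions overlap. The shared stretches are shown because their bases belong to both genes. How reads over them were counted is not stated by the sources used here. On the GENCODE annotation of mm10, mt-Atp8 and mt-Atp6 share 43 bases (chrM:7927-7969, plus strand) and mt-Nd4l and mt-Nd4 share 7 bases (chrM:10167-10173, plus strand). Capitals mark the start codon of the downstream gene.
mt-Atp8 with mt-Atp6: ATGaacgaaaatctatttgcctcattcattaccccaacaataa
mt-Nd4l with mt-Nd4: ATGctaa
mt-Nd5 and mt-Nd6 overlap over 14 bases on opposite strands.

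Among these genes the ratio between libraries varied more than counting error. The lowest were mt-Nd3, at 72.9 and 33.1 CPM in large barcodes (-1.13, -1.54 to -0.74), and mt-Nd6, at 181 and 86.4 CPM (-1.06, -1.31 to -0.82). Both encode membrane subunits of complex I, and mt-Nd6 is the only protein gene of the light strand. They also held the fewest UMIs of the 13, with 16634 and 34038 over both libraries.

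The highest ratios belonged to mt-Nd1 and mt-Nd5. mt-Nd1, a complex I subunit beside the quinone site, was at 7101 CPM in control and 7768 CPM in GS_KO in small barcodes (0.13, 0.12 to 0.14), at 5555 and 4984 in middle ones, and at 2774 and 2167 in large ones (-0.36, -0.41 to -0.30). mt-Nd5, a proton-pumping subunit, was at 2878 and 2950 CPM in small barcodes (0.04, 0.02 to 0.05) and at 1242 and 901 CPM in large ones (-0.46, -0.55 to -0.38). These were the only 2 members whose intervals lay above 0 in small and below 0 in large barcodes.

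Genes that share a transcript can be set against each other without any scaling. mt-Nd4l and mt-Nd4 are read from 1 messenger, and the UMIs of mt-Nd4l over those of mt-Nd4, not adjusted for length, were 3.40 in control and 3.14 in GS_KO in small barcodes and 3.02 and 2.74 in large ones. The ratio was lower in GS_KO in each class, with intervals of 3.38 to 3.42 and 3.12 to 3.16 in small barcodes. In large barcodes the intervals, 2.90 to 3.15 and 2.61 to 2.89, also did not overlap. For mt-Atp8 over mt-Atp6 it was 0.261 and 0.270 in small barcodes and 0.250 and 0.266 in large ones, and the intervals overlapped in large barcodes.

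The other mitochondrial genes lay between these extremes. In large barcodes mt-Co1 was at 7384 and 5217 CPM (-0.50) and mt-Co2 at 4007 and 2842 CPM (-0.50). The complex V genes mt-Atp6 (3425 and 2115 CPM, -0.70) and mt-Atp8 (856 and 561 CPM, -0.61) were lower in GS_KO by a wider margin. Of the complex I genes, mt-Nd2 was at 1822 and 1231 CPM (-0.57), mt-Nd4 at 1294 and 811 CPM (-0.67) and mt-Nd4l at 3909 and 2225 CPM (-0.81). In large barcodes 7 of the 13 were lower by 1.5-fold or more, against 15.1% of all genes. In small ones 1 of 13 was, against 11.8% of all genes.

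**Figure D2:**
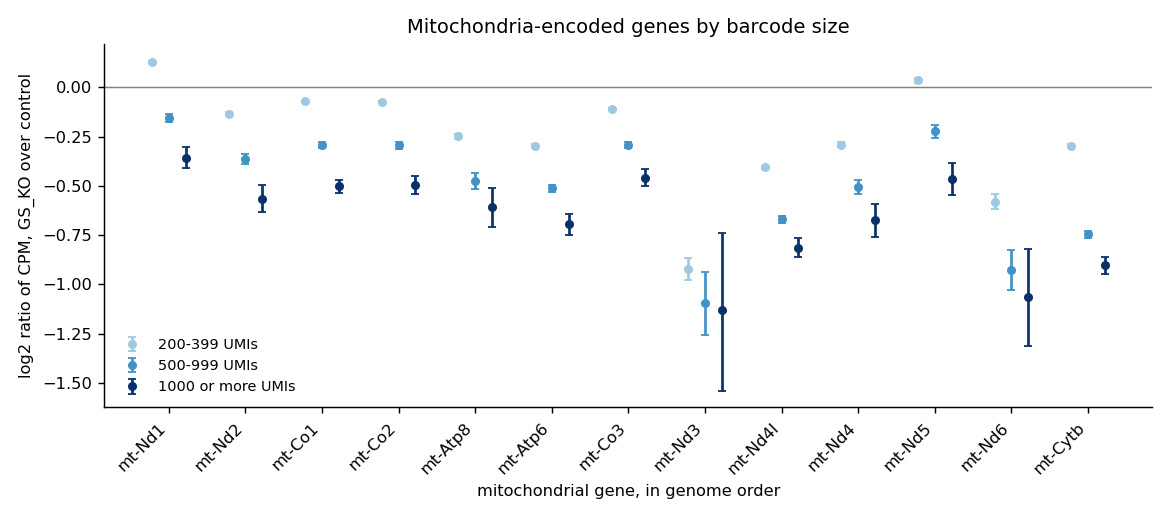
Log2 ratio of CPM (GS_KO over control, y axis) of the 13 mitochondrial genes in genome order (x axis), for small, middle and large barcodes; bars are exact 95% intervals of counting error. Within each gene the ratio is lower in larger barcodes, and mt-Nd3, mt-Nd6 and mt-Cytb lie lowest in large barcodes, at -1.13, -1.06 and -0.90.

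The balance of the 2 genomes can be read inside each library, where it does not depend on scaling. Mitochondrial subunit UMIs were 3.99 times the nuclear subunit UMIs in control and 4.98 times in GS_KO in small barcodes, 3.77 and 4.44 times in middle ones, and 3.31 and 3.78 times in large ones. The ratio was higher in GS_KO in each class, by 0.32, 0.24 and 0.19 on the log2 scale. In large barcodes this direction did not hold once free RNA was taken off. Free RNA was estimated per barcode as the library's median UMI count at the profile of small barcodes, which makes up 27.5% of control and 22.8% of GS_KO UMIs in large barcodes. After that step the difference was -0.25 in large barcodes and 0.078 in middle ones, and mitochondrial and nuclear sums were lower in GS_KO by -1.20 and -0.95 on the log2 scale.

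Within each library the level of respiratory chain transcripts depended on barcode size. From small to large barcodes the nuclear sum went from 23327 to 11026 CPM in control (log2 ratio -1.08, -1.10 to -1.06) and from 16837 to 6390 CPM in GS_KO (-1.40, -1.42 to -1.37). The mitochondrial sum went from 93180 to 36442 CPM in control (-1.35, -1.37 to -1.34) and from 83829 to 24146 CPM in GS_KO (-1.80, -1.81 to -1.78). In control 91 of 105 members were lower by 1.5-fold or more in large barcodes and 5 higher, against 22.2% and 46.2% of all genes measured. In GS_KO 96 were lower and 4 higher, against 21.4% and 50.2%. Malat1 went the other way, as its levels above show, and whether the members' lower level follows a larger share of nuclear RNA in large barcodes was not tested.

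**Figure D3:**
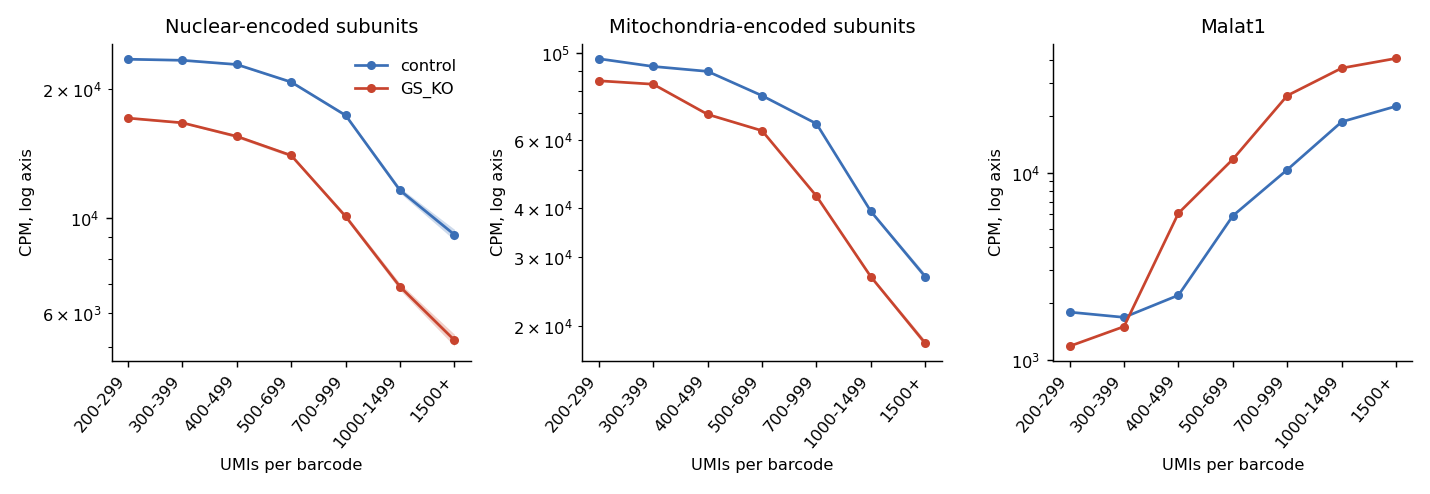
Summed CPM (y axis, log scale) of nuclear-encoded subunits, mitochondria-encoded subunits and Malat1 against barcode size in UMIs (x axis), 1 line per library; bands are exact 95% counting intervals. Both subunit sums decline in both libraries, to 9129 and 5180 CPM for nuclear and 26745 and 18064 CPM for mitochondrial subunits at 1500 UMIs or more, while Malat1 climbs, and control lies above GS_KO throughout for the subunits.

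Of the 7 members above 0 in control, 4 spanned 30 kb or more, among them the 3 longest. Sdhaf3, an assembly factor of complex II that spans 87.0 kb, went from 10.4 to 36.2 CPM in control and from 9.02 to 26.2 CPM in GS_KO. Ndufaf2, a complex I factor spanning 156 kb, went from 19.8 to 44.4 and from 15.9 to 24.6 CPM. Ndufs4, spanning 100 kb, went from 105 to 158 and from 88.7 to 147 CPM. The others were Ndufaf5, Ndufaf6, Sdhaf2 and Cox6b2, a short gene with few UMIs. Over the 90 nuclear members measured in large barcodes, the log10 of gene span and the log2 size ratio had a Pearson r of 0.68 and a Spearman rho of 0.58 in control, and 0.69 and 0.58 in GS_KO. These correlations are across genes that share the same libraries and are descriptions only.

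Of the 90 nuclear members measured in large barcodes, 60 spanned under 10 kb. Their median size ratio was -1.14 in control and -1.47 in GS_KO, and none was above 0. Cox6b2 was under the gene minimum in large barcodes and is not among them. The 24 members of 10 to under 30 kb had medians of -0.85 and -1.22. The 6 members of 30 kb or more had medians of 0.64 and 0.17, with 4 of 6 above 0 in control and 3 of 6 in GS_KO. For the ratio between libraries in large barcodes the 3 span groups had medians of -0.85, -0.64 and -0.55, so the deficit in GS_KO was present in each. Exon length went with the size ratio more weakly, with a Spearman rho of 0.31 and 0.30.

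**Figure D4:**
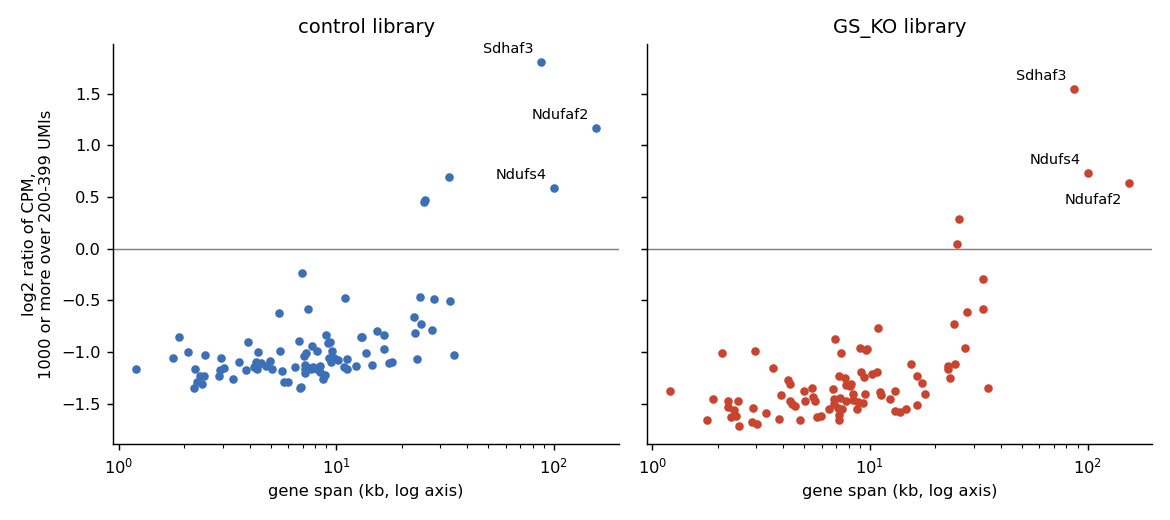
Each point is 1 nuclear member: gene span in kb (x axis, log scale) against the log2 ratio of CPM in barcodes of 1000 UMIs or more over barcodes of 200 to under 400 UMIs (y axis), in control and GS_KO. Most members under 10 kb lie near -1.14 in control and -1.47 in GS_KO, and Sdhaf3, Ndufaf2 and Ndufs4, of 87.0 kb or more, lie above 0 in both libraries.

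Because Malat1 differed between the libraries, the sums were also compared in barcodes with a like Malat1 share. In large barcodes with a share of 2 to under 4% (720 control and 891 GS_KO barcodes) the nuclear sum was 8799 and 6417 CPM, a log2 ratio of -0.46 (-0.50 to -0.41). The mitochondrial sum was 26409 and 25870 CPM there, a ratio of -0.03 (-0.05 to -0.01). Nuclear subunits were thus still lower in GS_KO at a like Malat1 share, by less than the -0.79 of all large barcodes, and the mitochondrial ratio was close to 0. Of 77 nuclear subunits 72 were below 0 and 25 were lower by 1.5-fold or more (32.5%, against 16.0% of 8419 genes).

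The other Malat1 bins of large barcodes gave nuclear ratios of -0.34 (-0.44 to -0.25) under 1%, -0.32 (-0.40 to -0.25) at 1 to under 2%, and -0.49 (-0.64 to -0.33) at 4% or more. Mitochondrial ratios were -0.32 (-0.37 to -0.27), -0.12 (-0.15 to -0.08) and 0.09 (-0.01 to 0.20). The bins are unequal: under 1% held 274 control and 61 GS_KO barcodes, and 4% or more held 35 and 727. Under 1%, 31.2% of nuclear subunits were past 1.5-fold lower and so were 38.4% of all genes, so there the subunits did not stand apart from other genes. At 1 to under 2% the shares were also near each other (24.7% of nuclear subunits, 21.9% of 6339 genes). At 4% or more they were 58.1% and 30.6%. Of the mitochondrial genes, 30.8%, 0%, 0% and 8.33% were past 1.5-fold lower from the lowest to the highest bin. Each of these shares was below that of all genes in its bin. In middle barcodes the nuclear ratios were -0.44, -0.26, -0.45 and -0.51 from the lowest to the highest bin, and the mitochondrial ones -0.16, -0.15, -0.08 and 0.05. From middle to large barcodes the nuclear ratio was thus lower at 1 to under 2% and 2 to under 4%. It was higher in the lowest and highest bins.

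**Figure D5:**
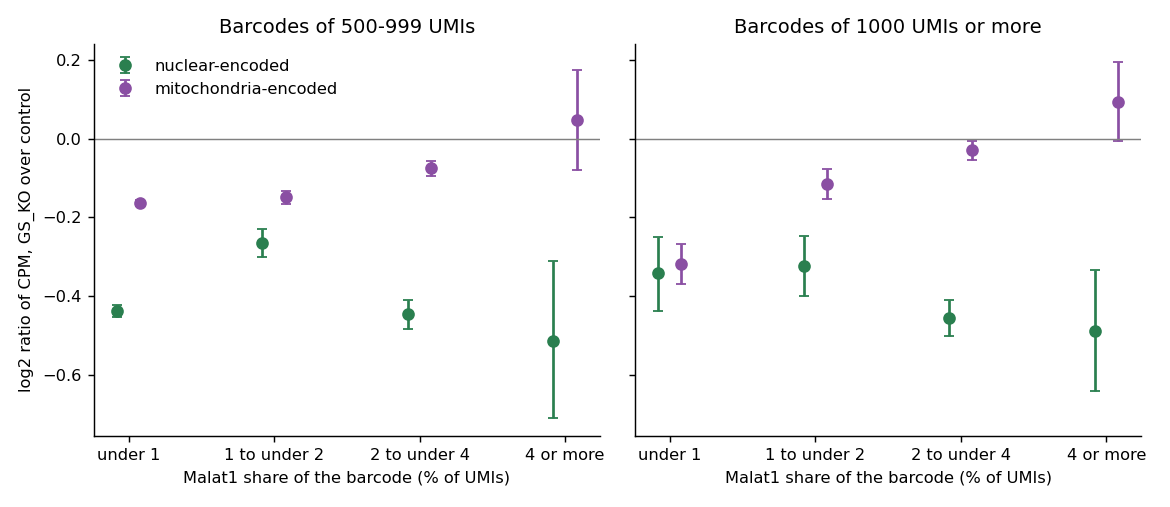
Log2 ratio of summed CPM (GS_KO over control, y axis) of nuclear-encoded and mitochondria-encoded subunits in barcodes binned by the Malat1 share of their UMIs (x axis), for middle and large barcodes; bars are exact 95% counting intervals. Nuclear ratios lie between -0.26 and -0.51 in every bin, and mitochondrial ratios move from below 0 to 0.05 and 0.09 in the bins of 4% or more, whose intervals include 0.

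The order of the complexes differed between Malat1 bins. At 2 to under 4%, the bin with the most barcodes in each library, complex IV had the lowest nuclear ratio, -0.60 (-0.70 to -0.50), followed by complex III at -0.52 (-0.66 to -0.38), complex II at -0.47 (-0.67 to -0.26), complex V at -0.41 (-0.49 to -0.33) and complex I at -0.38 (-0.46 to -0.30). The intervals of complexes IV and V did not overlap, and neither did those of IV and I, whereas the other neighbours overlapped. Complex III was lowest under 1% (-0.57, -0.90 to -0.28) and at 1 to under 2% (-0.61, -0.88 to -0.37), and complex II at 4% or more (-0.78, -1.35 to -0.08). Complex IV had the highest ratio at 1 to under 2% (-0.24, -0.40 to -0.08) and at 4% or more (-0.33, -0.68 to 0.06). Mitochondrial genes lay on both sides of 0 at 2 to under 4%: mt-Nd1 was at 2043 and 2322 CPM (0.18, 0.10 to 0.27) and mt-Co1 at 5239 and 5648 CPM (0.11, 0.06 to 0.16), while mt-Nd6 (-0.49, -0.87 to -0.11), mt-Nd4l (-0.27, -0.35 to -0.20) and mt-Cytb (-0.21, -0.28 to -0.14) were lower.

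Markers of other liver cells differed between the libraries, so the sums were also taken by marker. Among barcodes of at least 500 UMIs, those with at least 3 UMIs of Kupffer cell markers and under 2 of any other cell type than hepatocytes numbered 211 in control and 1014 in GS_KO. Nuclear subunits stood at 16674 CPM (16015 to 17354) in the control and 12549 CPM (12291 to 12811) in the GS_KO barcodes of that kind, and mitochondrial ones at 64190 and 46471 CPM. In barcodes with stellate cell markers (350 and 184) the nuclear sum was 15878 and 10043 CPM, and with sinusoidal endothelial markers (146 and 113) it was 16244 and 12795 CPM. In barcodes with no UMI of any marker of another cell type than hepatocytes (9934 and 6495) it was 17621 and 10190 CPM, and the mitochondrial sum was 64374 and 44880 CPM. The nuclear and the mitochondrial sums were lower in GS_KO in each of these 4 sets. Malat1 was higher in GS_KO in each, at 6637 and 10313 CPM with Kupffer and 12961 and 24280 CPM with stellate markers. It was at 9182 and 14816 CPM with endothelial markers, and at 10616 and 26426 CPM with no marker. The sets were not compared at a like Malat1 share. Barcodes with plasma and B cell markers (26 and 87) had 13211 and 10651 CPM of nuclear subunits. Those with T and NK cell markers and those with neutrophil and monocyte markers numbered 2 each in control and were not compared. Free RNA enters all barcodes of a library, so these levels are not those of the named cells alone.

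Leaving out barcodes with 2 or more UMIs of other cell types gave nuclear log2 ratios of -0.47, -0.70 and -0.82 and mitochondrial ones of -0.14, -0.42 and -0.63 in small, middle and large barcodes. The nuclear deficit was thus as large without those barcodes. In large barcodes the endothelial markers summed to 128 CPM in control and 116 in GS_KO (7 of 10 lower), the stellate markers to 233 and 216, and the plasma and B cell markers to 105 and 276, 3 of these 8 being at 0 in control. The T and NK cell, neutrophil and monocyte, and cholangiocyte markers were at 3.21 and 9.0, 2.29 and 25, and 0 and 15.6 CPM, with 6 of 9, 5 of 8 and 6 of 6 at 0 in control and 2, 0 and 4 at 0 in GS_KO.

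Other genes of mitochondrial energy metabolism were mostly lower too, and the electron carriers and citric acid cycle genes had medians above that of the nuclear subunits in each class. The 9 electron carriers are mobile carriers, enzymes that feed the chain, and Cyc1, a complex III subunit outside the name rule. Their medians were -0.34, -0.49 and -0.64 in small, middle and large barcodes. In these classes 0 of 9, 3 of 9 and 5 of 8 were past 1.5-fold lower, and none was higher. The shares of all genes past that fold lower were 11.8%, 10.4% and 15.1%. Cycs, cytochrome c itself, was at 165 and 131 CPM in small and at 75.6 and 48.7 CPM in large barcodes (-0.63, -0.99 to -0.29). The citric acid cycle list of 19 genes also holds genes of the pyruvate dehydrogenase complex and pyruvate carboxylase. Its medians were -0.44, -0.45 and -0.39, with 5, 5 and 7 of 19 lower by 1.5-fold against the same shares of all genes, and 0 higher. In large barcodes fumarase, Fh1, was the lowest of the list at 207 and 70.4 CPM (-1.55, -1.82 to -1.30). Citrate synthase, Cs, was higher in GS_KO there at 77.4 and 104 CPM (0.42, 0.13 to 0.71). Both were chosen after their values were seen.

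The machinery that makes mitochondrial proteins was less reduced. The 78 mitochondrial ribosomal proteins had medians of -0.18, -0.32 and -0.35 in the 3 classes, with 1, 5 and 21 lower by 1.5-fold and 1, 0 and 0 higher. The counts of 1 and 5 of 78 are below the 11.8% and 10.4% of all genes, and 21 of 78 is above the 15.1%. The import proteins Tomm and Timm had medians of -0.38, -0.36 and -0.55, the 27 genes of mitochondrial transcription and RNA handling -0.39, -0.22 and -0.28, and 36 other assembly factors -0.18, -0.19 and -0.36. Genes with names beginning Rpl or Rps had medians of -0.20, -0.18 and -0.42. Most encode cytoplasmic ribosomal proteins, short and abundant like many subunits, but the name pattern also matches the kinases named Rps6k. Of the Rpl and Rps genes, 5 of 94, 3 of 92 and 28 of 88 were past 1.5-fold lower. That was above the share of all genes (15.1%) in large barcodes and below it in the other classes. A list of ATP, ADP, phosphate and other metabolite carriers, Vdac channels and uncoupling proteins had medians of -0.27, -0.34 and -0.42. Antioxidant enzymes of mitochondria had medians of -0.22, -0.06 and -0.29, and messengers of secreted hepatocyte proteins 0.11, -0.08 and -0.27. A list of 7 noncoding RNAs (Malat1, Neat1, Meg3, Kcnq1ot1, Mir22hg, Snhg11 and Gas5) had medians of 0.03, 0.12 and 0.60. Not all of them are known to stay in the nucleus.

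Ubiquinone synthesis and regulators of mitochondrial gene expression had members of both signs. The 13 ubiquinone genes had medians of -0.21, -0.01 and 0.09, and held extremes of both signs. Coq8a, a kinase-like protein of the ubiquinone synthesis complex, was at 82.1 and 229 CPM in small and 43.1 and 185 CPM in large barcodes (2.09, 1.78 to 2.44), and Coq10b, a ubiquinone-binding protein, was at 48.9 and 6.90 and at 120 and 36.0 CPM (-1.73, -2.10 to -1.38). The regulators had medians of -0.55, -0.05 and -0.02. The nuclear receptor Esrrg was at 767 and 301 CPM in large barcodes (-1.35, -1.48 to -1.22) and the coactivator Ppargc1b at 70.6 and 36.0 CPM (-0.97, -1.37 to -0.58), while Ppargc1a was at 57.7 and 55.7 CPM and Nrf1 at 63.2 and 53.2 CPM, with intervals that include 0. These 4 genes and the 2 ubiquinone genes were chosen after their values were seen.

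Since the nuclear subunits were lower together, their promoters were searched for motifs of factors known to bind respiratory chain genes. RefSeq promoter sequences (build GRCm38.p6) were matched for 78 of the 92 nuclear members and 66 of the 78 subunits. Among those with no entry were Atp5a1, Cox4i1, Cox6c, Sdhc, Uqcrb, Uqcrc2 and Uqcrq. Both strands of the 250 bases before the start were searched, and a match describes letters only. The 5 stretches below show an NRF1 motif (Ndufs5 and Ndufb4), an ETS motif (Uqcr11 and Atp5e, the lower members of complexes III and V) and, for Cox5a, a subunit with neither. Capitals mark the motif, and bases in annotated exons were left off at the 3' end.
Ndufs5 (chr4:123718203-123718436, minus strand): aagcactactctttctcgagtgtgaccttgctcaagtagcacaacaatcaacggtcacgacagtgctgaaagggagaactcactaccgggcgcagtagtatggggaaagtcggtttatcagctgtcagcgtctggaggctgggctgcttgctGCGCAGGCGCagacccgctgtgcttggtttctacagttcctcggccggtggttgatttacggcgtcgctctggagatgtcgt
Ndufb4 (chr16:37654454-37654618, minus strand): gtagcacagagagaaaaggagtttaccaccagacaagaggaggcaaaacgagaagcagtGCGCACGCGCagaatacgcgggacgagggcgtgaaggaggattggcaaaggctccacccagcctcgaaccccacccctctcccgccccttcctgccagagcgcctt
Uqcr11 (chr10:80406831-80407071, minus strand): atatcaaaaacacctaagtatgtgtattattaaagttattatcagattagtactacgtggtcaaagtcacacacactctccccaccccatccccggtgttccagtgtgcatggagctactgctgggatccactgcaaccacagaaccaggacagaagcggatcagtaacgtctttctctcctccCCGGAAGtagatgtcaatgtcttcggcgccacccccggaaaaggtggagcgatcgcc
Atp5e (chr2:174464106-174464351, minus strand): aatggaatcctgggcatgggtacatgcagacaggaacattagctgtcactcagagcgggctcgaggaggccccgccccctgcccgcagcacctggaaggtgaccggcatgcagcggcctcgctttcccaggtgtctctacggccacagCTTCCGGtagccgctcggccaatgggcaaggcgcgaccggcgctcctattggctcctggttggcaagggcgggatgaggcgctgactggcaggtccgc
Cox5a (chr9:57520982-57521231, plus strand): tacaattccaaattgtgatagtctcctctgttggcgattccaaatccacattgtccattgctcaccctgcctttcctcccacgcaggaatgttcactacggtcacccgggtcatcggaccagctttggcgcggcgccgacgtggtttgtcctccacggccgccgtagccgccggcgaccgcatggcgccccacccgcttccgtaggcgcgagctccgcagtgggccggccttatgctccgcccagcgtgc

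The NRF1 motif, GCGCA and GCGC with any 1 base between them, was found in 12 of the 66 subunit promoters (18.2%), against 3.86% of 27025 promoters. The ETS motif, CCGGAAG, the core bound by GABPA among others, was found in 11 (16.7%, against 7.05%), and 3 held both. CCAAT was found in 28 (42.4%, against 34.5%), the GC box GGGGCGGGG in 9 (13.6%, against 10.5%), TATAAA in 6 (9.09%, against 13%) and the YY1 motif AAGATGGCG in none (against 0.607%). Motif presence went little with the ratio between libraries: subunits with and without the NRF1 motif had median log2 ratios of -0.94 and -0.81 in large barcodes, and those with and without the ETS motif -0.85 and -0.81. For CCAAT the medians were -0.82 and -0.81, for TATAAA -0.80 and -0.81, and for the GC box -0.76 and -0.82. The 5 subunits shown had ratios of -0.98, -1.11, -1.14, -1.20 and -0.36 in the order printed. They were chosen with their ratios known and do not stand for all subunits. Ndufa12 (-1.30) and Cox7a2 (-1.18) had neither motif. Ndufs3 (-0.30) had the ETS motif and Atp5g2 (-0.54) the NRF1 motif.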

How the data were processed

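RNA was counted in 1 liver library of a control mouse and 1 of a GS_KO mouse. The authors deposited raw UMI counts per gene and barcode, per the file headers the output of Cell Ranger 8.0.0. The build is mm10, per the submitters' processing notes. No source used here states how barcodes were selected for deposit. The members, gene lists, size classes and alternatives were chosen with earlier results of these data known.

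Counts were summed over the barcodes of a size class and scaled to CPM. Ratios of single genes had 0.5 counts added to each sum, and ratios of group sums had none. Genes with at least 20 UMIs in a class over both libraries were measured. Intervals are exact Poisson (levels) and conditional binomial (ratios). The named genes were all mitochondrial members, the 2 lowest and 2 highest members of each complex in large barcodes (1 and 1 for complex II) with at least 100 UMIs there, the 3 lowest and 3 highest in small barcodes with the same minimum, isoform pairs, members with intervals on opposite sides of 0 in small and large barcodes, and Glul. Any further gene was chosen after its values were seen. Doublets were not removed. The ratio and interval calculation was tested on simulated data.

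Alternatives changed the scaling (edgeR 4.0.16 TMM factors, the median of all genes, or a total without mitochondrial genes and Malat1), the gene filter, the fold, the members, the barcodes and the free RNA. Python 3.11.15, numpy 2.4.6, scipy 1.17.1, pandas 2.3.3 and R 4.3.3 were used, with positions from GENCODE.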

Additional observations from a re-analysis of the deposited data

How the results depend on the processing

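Small, middle and large below are barcodes of 200 to under 400, 500 to under 1000 and at least 1000 UMIs, and values are log2 ratios of GS_KO over control unless stated. Of 117 values recomputed under alternatives, 59 moved by no more than their counting interval or count tolerance, 57 moved further, and 1 reversed. The reversed value was the mitochondrial over nuclear difference in large barcodes, -0.25 with free RNA taken off. With free RNA taken off, middle barcodes gave -0.77 (nuclear sum), -0.70 (mitochondrial sum), -0.80 (median nuclear subunit), a mitochondrial over nuclear difference of 0.078 and 1 member past 1.5-fold higher, and large barcodes gave -0.95, -1.20 and a median of -0.99. Nuclear sum, mitochondrial sum and median were -0.44, -0.12 and -0.50 in small, -0.79, -0.55 and -0.82 in middle and -0.83, -0.63 and -0.85 in large barcodes with TMM factors. Relative to the median of all genes they were -0.46, -0.14 and -0.51, then -0.79, -0.55 and -0.82, then -0.83, -0.64 and -0.85. With totals without mitochondrial genes and Malat1 they were -0.49, -0.17 and -0.54 in small and -0.66, -0.42 and -0.69 in middle barcodes. A filter of 100 UMIs gave a median of -0.52 in small barcodes. All nuclear name matches gave a sum of -0.46 and a median of -0.47 in small barcodes and a median of -0.64 in middle ones. Without barcodes with 2 or more UMIs of other cell types, small barcodes gave -0.14 (mitochondrial sum), 0.33 (mitochondrial over nuclear) and -0.53 (median), middle ones -0.70 and -0.42 (sums), 0.29 and -0.74, and large ones -0.82 and -0.63 (sums). At 2-fold, 1, 8 and 23 members were lower in small, middle and large barcodes. In place of large barcodes, those of at least 1500 UMIs gave -0.82, -0.57, a difference of 0.25 and a median of -0.87, and all barcodes gave -0.49, -0.19, 0.30, -0.54 and 36 members past 1.5-fold lower. Where no construction shows it, the cause was not tested.

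No paired analysis was possible because each group is 1 library, and the shared number 1 only follows accession order. For the same reason no library was left out. Depth limits single genes most in large barcodes, where Cox6b2 and Ndufa4l2 were under the gene minimum. The difference between 2 mice cannot be told apart from that between 2 preparations or 2 libraries.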
